A study of Mus musculus with 6 samples.

Results

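The genes described here are 56 developmental transcription factors of the mouse that carry a homeobox outside the Hox clusters or a paired box: the Pax, Lhx, Nkx, sine oculis (Six2 to Six6), Dlx, Msx, Otx, Emx, En, Irx, Pitx, Barx, Gsx and Pdx families. They were taken from a list of names, not by a cut on measured values. The list was chosen with earlier results of these data known. They are 56 of 21887 genes in the gene table used. Cytosines in a CpG were counted for a gene where all 6 libraries listed them with 10 or more reads, inside the gene or within 1 kb of either end. Of the 56 genes, 55 had at least 3 such cytosines in some region, with 12790 cytosines in all, and Pax4 had none. DNA methylation was read in male germ cells by reduced representation bisulfite sequencing (RRBS), which samples CpG-rich fragments cut at a fixed restriction site. There were 3 libraries from Control mice and 3 from mice put through chronic social defeat (CSDS), in which an animal is repeatedly exposed to an aggressor. The labels give no strain, age or germ cell stage, and do not say whether replicates are separate animals, so the spread between libraries may be technical. In DNA pooled from many cells, a level between 0 and 100% cannot tell a mixture of cells from partly methylated molecules.

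Homeobox and Pax proteins bind DNA and set the identity of tissues and body regions in the embryo. Pax6 and Six3 act in the eye and forebrain, Pdx1 in the pancreas, Nkx2-5 in the heart and Pax8 in the thyroid and kidney. Their genes are known for long CpG islands that stay free of methylation even where the gene is silent and that are bound in many cell types by Polycomb proteins, which keep developmental genes off. Most other genes combine an unmethylated island at the start with a methylated gene body.

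The DNA before these starts is rich in CpG and in the letters CCGG. The 250 bases upstream of the annotated start, from RefSeq on GRCm38.p6, were found for 42 of the 56 genes. They held a median of 15 CpGs, against 10 in 17492 protein-coding genes, and had 61.8% G and C against 55.2%. The letters CCGG occurred in 33 of the 42 (78.6%) and in 55.2% of the protein-coding genes' windows. CCGG reads the same on both strands. It is cut by MspI, the usual enzyme of RRBS, although the labels do not name the enzyme. The 5 sequences below run 5′ to 3′ along the gene, with every CpG that was measured in all 6 libraries in capitals. They show an island read in full (Nkx6-1, Msx1), islands read in part (Pax6, En1) and a CpG-poor start that was not reached (Lhx8).
Nkx6-1: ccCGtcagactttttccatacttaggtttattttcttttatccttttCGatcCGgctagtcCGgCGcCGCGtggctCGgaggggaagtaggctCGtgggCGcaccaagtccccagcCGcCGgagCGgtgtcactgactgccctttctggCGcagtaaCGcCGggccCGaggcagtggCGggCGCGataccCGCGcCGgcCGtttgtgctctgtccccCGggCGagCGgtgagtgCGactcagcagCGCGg
Msx1: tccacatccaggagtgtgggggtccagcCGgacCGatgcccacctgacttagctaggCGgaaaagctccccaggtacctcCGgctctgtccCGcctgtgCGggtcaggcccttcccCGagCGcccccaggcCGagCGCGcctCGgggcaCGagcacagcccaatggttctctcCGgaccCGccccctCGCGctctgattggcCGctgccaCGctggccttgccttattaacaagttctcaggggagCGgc
Pax6: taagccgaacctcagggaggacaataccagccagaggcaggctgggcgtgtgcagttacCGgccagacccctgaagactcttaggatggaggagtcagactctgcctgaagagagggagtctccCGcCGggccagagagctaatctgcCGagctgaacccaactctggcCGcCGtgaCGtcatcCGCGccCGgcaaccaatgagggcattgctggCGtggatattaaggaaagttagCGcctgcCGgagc
En1: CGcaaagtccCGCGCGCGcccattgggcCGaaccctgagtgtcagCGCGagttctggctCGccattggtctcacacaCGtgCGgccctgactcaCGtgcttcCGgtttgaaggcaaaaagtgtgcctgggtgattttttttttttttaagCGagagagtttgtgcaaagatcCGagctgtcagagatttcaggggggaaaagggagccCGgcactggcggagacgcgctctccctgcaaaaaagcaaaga
Lhx8: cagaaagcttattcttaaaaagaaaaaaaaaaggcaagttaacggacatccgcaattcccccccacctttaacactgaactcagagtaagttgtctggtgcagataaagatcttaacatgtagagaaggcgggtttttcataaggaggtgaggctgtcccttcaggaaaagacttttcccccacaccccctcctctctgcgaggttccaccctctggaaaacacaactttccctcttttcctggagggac

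For Nkx6-1, a regulator of beta cells and motor neurons, the stretch at chr5:101664712-101664961 on the minus strand had all 30 CpGs measured, averaging 13.997% ± 0.448 in Control (SD, n = 3) and 11.1% ± 2.20 in CSDS (SD, n = 3). For Msx1, which acts in tooth and limb buds, all 20 CpGs at chr5:37824586-37824835 on the minus strand were measured, at 10.6% ± 0.607 and 9.16% ± 2.99. For Pax6, 13 of 15 CpGs at chr2:105668646-105668895 on the plus strand were measured, at 15.9% ± 1.99 in Control and 12.04% ± 1.54 in CSDS. In En1, a gene of the midbrain boundary, 16 of 19 CpGs at chr1:120602237-120602486 on the plus strand were measured. Its 3 Control libraries stood at 16.9%, 16.02% and 13.7%, and its 3 CSDS libraries at 9.89%, 7.80% and 8.25%, so the groups did not overlap. Lhx8, a gene of cholinergic neurons and teeth, has 4 CpGs at chr3:154330561-154330810 on the minus strand and none of them was measured. Its 65 measured cytosines lie elsewhere in the window around its start.

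Each gene was divided into a start window of 1 kb either side of the end where the gene table has it begin, an interior more than 1 kb from both ends, and a far end of 1 kb either side of the other end. A start window was measured in 51 genes, an interior in 49 and a far end in 30. Besides Pax4, no start value was had for Pax5, Lhx3, Lhx4 and Otx2, and no interior for Nkx2-4, Six5, Msx2, Irx6, Gsx1 and Gsx2. In 9 of the 42 genes with an upstream sequence (Pax1, Pax9, Lhx4, Lhx9, Nkx2-2, Nkx2-5, Six3, Dlx1 and Irx2) that sequence lies outside the start window, since the table's gene begins 1.33 to 9.70 kb further out, and the promoter falls in the interior. In 38 of the 51 the start follows the annotated strand. In the other 13 no strand was available, and the end with more cytosines was taken, which is the annotated start in 89.1% of genes with a known strand and in 33 of 39 of these genes. Another gene, in most cases a long noncoding RNA, reaches into the start window of 25 members, so those cytosines belong to both. A level is the mean over cytosines of the percent of reads that show C, as deposited. Libraries listed 2420308 to 3156788 cytosines with a median coverage of 44 to 50 reads. Of the germline marker genes, 10 had a measured start, all under 30% in Control (median 22.04%, highest 29.4%), as known for germ cells, in which these starts lose the methylation that body cells keep. Over all genes 87.7% of starts were under 30%, and the median was 14.8%. The 9 measured starts of somatic testis markers had a median of 46.0% and ran from 11.6% to 96.0%. Of these 9, 4 were under 30% and 3 over 80%, so the list cannot tell whether other testis cells were present.

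Starts were almost uniformly low. The median over the 51 starts was 15.4% in Control, against 14.8% over 13923 genes. In 48 of 51 (94.1%) the level was under 30%, against 87.7% of all genes, and 45 (88.2%) were under 20%, against 77.2%. Within 1 kb of the start that the sequences above border, measured in 39 of the 42 genes, the median was 14.006%, against 14.7% over 11340 genes, and 38 of the 39 were under 30%. Nkx2-4, a thyroid and hypothalamus factor, was lowest at 9.20% ± 0.307 over 232 cytosines. En2, a cerebellar gene, followed at 9.73% ± 0.400, then Msx2 at 9.96% and Irx4, a ventricle gene of the heart, at 10.2%. These lowest levels are close to the share of C reads at mitochondrial cytosines in Control, 9.26% ± 0.676, described further on. Their order therefore says little about methylation. The family medians lay between 10.7% (Msx, 2 genes) and 18.4% (Dlx, 6 genes). Lhx (13.9%, 5 genes), Irx (13.8%, 6 genes), Nkx (15.7%, 9 genes), sine oculis (15.98%, 5 genes) and Pax (17.1%, 7 genes) stood between them.

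The 6 highest starts rested on few cytosines in most cases. Six3 stood at 43.8% ± 1.10 over 5 cytosines, with 42.7%, 44.8% and 44.0% in the Control libraries. Dlx5, a gene of the jaw and forebrain, was at 33.03% ± 6.64 over 18 cytosines and Pax8 at 30.3% ± 3.16 over 8. Dlx1 (27.5%, 14 cytosines), the heart and gut gene Nkx2-3 (25.2%, 34 cytosines) and Dlx4 (20.7%, 58 cytosines) came next. Of these the Six3 and Dlx1 windows lie 7.23 and 1.33 kb from the start in the sequence table. Within 1 kb of that start Six3 stood at 11.9% ± 3.40 over 75 cytosines and Dlx1 at 12.99% ± 1.496 over 58, so their promoters were as low as the rest. Dlx5 has no annotated strand here. Its window marks the end with more cytosines and may be the 3′ end of the gene, and its other end stood at 39.3% over 6 cytosines. The order of these windows also rests on cytosines that are high on 1 strand only, described further on: without them Pax8 stood at 20.4%, Dlx5 at 20.002%, Nkx2-3 at 16.2%, Dlx4 at 14.9% and Dlx1 at 8.72%, while Six3 held none.

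Interiors set these genes apart from most others. Over 49 measured interiors the Control median was 18.9%, where the median of 13510 genes was 86.1%. In 43 of the 49 (87.8%) the interior was under 30%, against 15.8% of all genes. None of the 49 was above 80%, where 55.3% of all genes were. The lowest were Nkx2-3 at 11.2%, Nkx6-1 at 11.8%, Msx1 at 12.6%, Irx3 at 12.8% and Irx5 at 13.05%. The Irx factors pattern heart, limb and neural tube, and all 5 measured Irx interiors lay between 12.8% and 19.4%. The 8 Nkx interiors had a median of 15.4% and the 4 sine oculis interiors one of 18.6%.

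The Pax genes had the highest interiors, with a median of 32.8% over 8 genes. Pax8 stood at 50.6% ± 1.36 over 28 cytosines and was the only interior over 50%. Pax3, a neural crest gene, was at 41.0%, the B cell factor Pax5 at 37.6% and the muscle stem cell gene Pax7 at 36.6%. The remaining one of the 5 highest was Nkx2-6 at 34.3% over 13 cytosines. These Pax genes are long, 55.05 kb for Pax8, 95.9 kb for Pax3, 96.5 kb for Pax7 and 185.9 kb for Pax5, and each mixes low and high stretches. In Pax5, 61.6% of the 578 interior cytosines lay in CpG-dense DNA (20 or more listed cytosines within 100 bp) and averaged 12.2%. Its CpG-poor cytosines (6 or fewer within 100 bp) averaged 89.6%. In Pax3 the same 2 classes stood at 8.57% and 79.6%, and in Pax7 at 14.2% and 73.8%. Pax1, a gene of the vertebral column, differed from them at 17.2% for its interior of 118 cytosines.

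**Figure D1:**
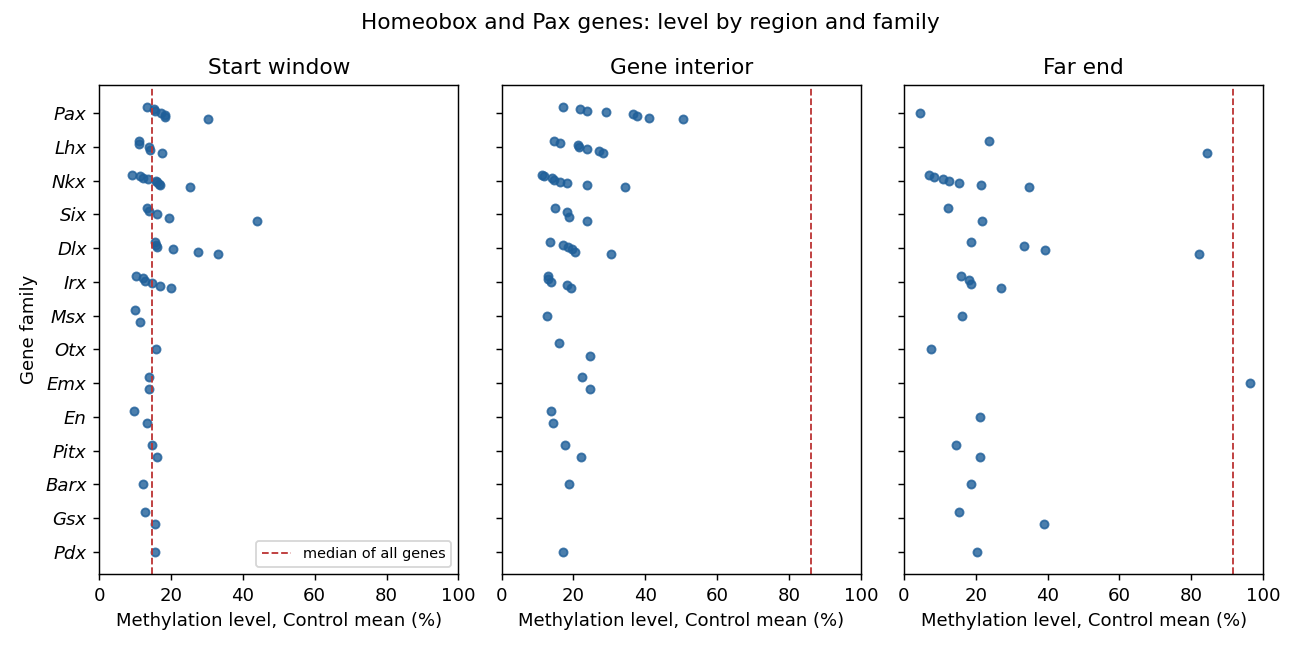
Methylation level in Control (x axis, percent, mean of 3 libraries) of each measured gene, 1 point a gene, by family (y axis), for start windows, interiors and far ends. The dashed line is the median of all genes, 14.8%, 86.1% and 91.7%. Interiors lie far to its left, and Pax8 is the only one over 50%.

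Far ends were low as well. The median over 30 far ends was 18.7% in Control, against 91.7% over 4034 genes, and 23 of the 30 (76.7%) were under 30%, against 24.6% of all genes. Pax2, a kidney and midbrain gene, had the lowest at 4.54% ± 1.18 over 19 cytosines. Nkx2-6 was at 7.07% over 7 cytosines, Otx1, a forebrain gene, at 7.45% and Nkx2-4 at 8.44%. These lowest far ends lie under the mitochondrial share of C reads in Control (9.26%), so their order says little about methylation. Those of 3 genes were above 80%, namely Emx1 at 96.3% (9 cytosines), Lhx3 at 84.4% (3 cytosines) and Dlx6 at 82.2% (10 cytosines).

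The interiors held more CpG-dense DNA than those of other genes, and within each density class their level was also lower. Of the interior cytosines 55.0% were CpG-dense, against 32.6% in other genes, and 9.40% were CpG-poor, against 29.5%. CpG-dense interior cytosines averaged 12.7% ± 0.248 in Control, against 15.9% ± 0.214 in other genes (SD, n = 3 libraries each). Those of middling density averaged 28.8% against 67.5%. CpG-poor ones averaged 60.5% ± 0.585 against 86.6% ± 0.198. These differences are larger than the spread between libraries, which does not measure the spread between genes.

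Tile medians over these genes stayed low for several kb on both sides of the start. In 500 bp tiles with values from at least 10 of these genes, the median stayed between 13.03% and 28.7% from 4.75 kb before the start to 9.75 kb into or past the gene. Over all genes the median tile was 88.4% at 4.25 kb before the start, 14.99% just before it, 87.6% at 3.75 kb after it and 89.8% at 9.75 kb. Each of these tiles holds 10 to 44 of these genes, so neighbouring tiles come from different genes. The start here is that of the gene table. In the 9 genes whose promoter falls in the interior, the promoter lies in the stretch after the start. Further before the start fewer than 10 of these genes had values in a tile. The medians there were 21.7% at 5.25 kb (8 genes), 42.3% at 7.25 kb (7 genes) and 78.7% at 7.75 kb (5 genes). They ran from 10.1% at 8.75 kb (1 gene) to 79.6% at 9.25 kb (5 genes).

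**Figure D2:**
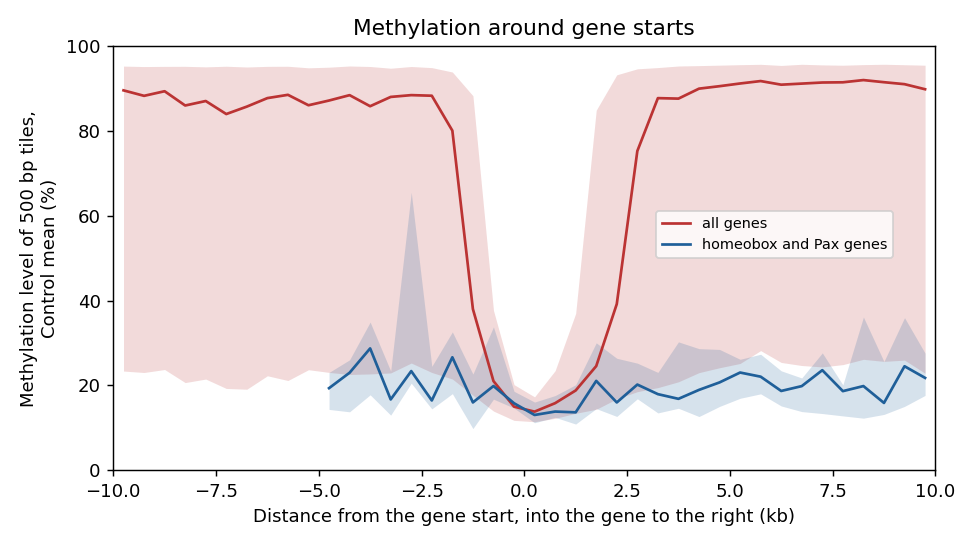
Methylation level in Control (y axis, percent) of 500 bp tiles by distance from the gene start (x axis, kb, gene to the right). Lines are medians over genes and shading the quartiles, for tiles with at least 10 genes. Where drawn, the line of the homeobox and Pax genes stays under 30%, while that of all genes rises above 80% within a few kb on either side. Before the start the line of the homeobox and Pax genes ends at 4.75 kb.

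A span of consecutive tiles under 20% around the start had a median width of 1.5 kb in these genes and of 1 kb in 13865 genes. It reached 4 kb in 10 of 51 (19.6%), against 1.54% of all genes and 16.2% of the 68 measured starts on a list of other homeobox genes, whose median was also 1.5 kb. The widest belonged to Pax1 (7.5 kb), the stomach and tooth gene Barx1 (7 kb), Gsx1, a forebrain gene (7 kb), and Lhx8, Msx2 and Nkx6-2 (4.5 kb each). On 1 side of the Pax1 span no further tile had values before the edge of the 10 kb examined. The spans of Barx1, Gsx1 and Msx2 ended at a stretch with no data. The widths of all these, Pax1 among them, may thus be cut short. After the mitochondrial correction described further on, the median was 3 kb in these genes and 1 kb in all genes, and 21 of 51 (41.2%) reached 4 kb, against 3.37%. With tiles allowed up to 30% the median was 3 kb, 23 of 51 (45.1%) reached 4 kb, against 3.89% of all genes, and the span of Six2, a kidney progenitor gene, was 12.5 kb. At the 20% limit the width differed between libraries, at 1.5 kb in each Control library and at 2 kb, 3 kb and 3 kb in CSDS replicates 1, 2 and 3. Tiles with no listed cytosine were bridged up to 3 kb, so the widths are only as fine as the sampled sites.

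Single cytosines inside these low windows broke the pattern on 1 strand only. Of the 4845 cytosines in the 48 starts under 30%, 193 (3.98%) stood over 80% in Control, with a median of 98.04%, and 46 of the 48 windows held at least 1. For 189 of them the partner cytosine on the other strand of the same CpG was also measured, and in 185 (97.9%) it was under 30%, with a median of 8.41% over all 189. Other genes showed the same, with 3.81% of cytosines over 80% and 97.02% of their partners under 30%. Of 2165 CpGs read on both strands in these windows, 185 were high on 1 strand and low on the other, 1 was high on both and 1782 were low on both.

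**Figure D3:**
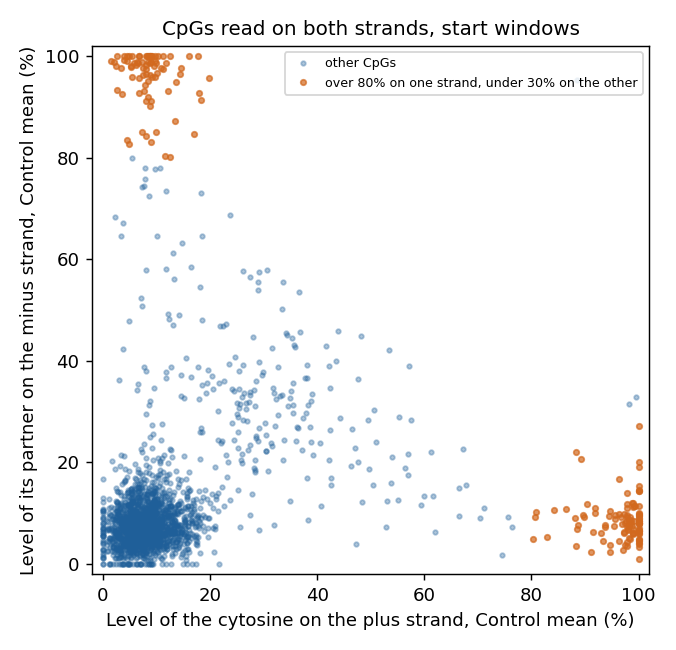
Level in Control (percent, mean of 3 libraries) of the cytosine on the plus strand (x axis) and of its partner on the minus strand (y axis), 1 point for each of 2165 CpGs in 48 start windows. Most points lie near the origin. The 185 orange points sit along the 2 far edges, and the upper right corner, high on both strands, is nearly empty.

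The letters around these cytosines were the same in every case that could be read. In 42 genes with sequence, 29 cytosines over 80% lay in the 300 bases around the start, and all 29 were in CCGG, against 84 of 780 cytosines (10.8%) under 30%. In other genes 94.6% of 7907 such cytosines were in CCGG. The upstream 250 bases held 19 CpGs of this kind in 15 genes, each centred on CCGG. Examples from 5 families follow as 30 bases along the gene, 5′ to 3′, with the CCGG in capitals.
Six2: ggggctcgggttaCCGGtgactgacagcgt
Gsx1: ctattgagaggccCCGGccgctcctggcgt
Msx1: tgtgggggtccagCCGGaccgatgcccacc
Pax6: gcgtgtgcagttaCCGGccagacccctgaa
Emx2: ttccattctgggcCCGGatccaggcctccg

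At the Six2 site (chr17:85688408-85688437) the cytosine on the strand opposite the gene read 100% in Control and its partner 4.80% ± 3.04 (SD, n = 3). At Gsx1 (chr5:147188598-147188627) the values were 100% and 10.4% ± 11.7, at Msx1 (chr5:37824792-37824821) 98.6% and 8.59% ± 3.17, and at Pax6 (chr2:105668691-105668720) 94.3% and 7.79% ± 1.18, again with the opposite strand high. At Emx2 (chr19:59458563-59458592), a gene of cortex and urogenital tract, the strand of the gene was the high one, at 100% against 4.47% ± 4.10. In CSDS the same 5 sites read 100%, 98.04%, 98.04%, 95.5% and 100% on the high strand. Coverage was lower on the high strand, with 11 to 44 reads per library at Six2 against 71 to 145 on the partner. The cause of the single-strand values was not tested. They add to most of the levels given above. Without cytosines over 80% whose partner is under 30%, 3 of 51 starts (Irx4, Pax7 and Six3), 4 of 49 interiors and 10 of 29 far ends had the same cytosines and level as before, and the medians in Control were 11.1% for starts, 14.2% for interiors and 13.4% for far ends (all genes: 11.2%, 86.1% and 91.8%). Without them the span under 20% had a median of 4 kb and reached 4 kb in 28 of 51 genes (54.9%), against 4.22% of all genes. The difference between the groups hardly moved, with medians of −3.75, −3.68 and −4.24 points.

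Between the groups, every start and every interior read lower on average in CSDS as deposited, and so did most genes. The CSDS mean was below the Control mean in 51 of 51 starts (background 96.2%), 49 of 49 interiors (82.2%) and 27 of 30 far ends (75.3%). The median of the differences was −3.75 points at starts, −3.69 in interiors and −3.78 at far ends. Over all genes it was −3.40, −1.56 and −1.62 points. The median start stood at 14.8%, 15.02% and 14.8% in the Control libraries and at 13.9%, 9.09% and 9.56% in CSDS replicates 1, 2 and 3. The median interior stood at 19.2%, 18.4% and 19.4% in Control and at 17.9%, 12.97% and 13.4% in CSDS. CSDS replicates 2 and 3 made most of the difference, and CSDS replicate 1 lay just under the Control libraries.

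The share of C reads in DNA held to be unmethylated moved the same way. At 27 cytosines of the mitochondrial genome the median was 8.90%, 8.84% and 10.04% in Control and 8.497%, 4.41% and 4.53% in CSDS replicates 1, 2 and 3 (means 9.26% ± 0.676 and 5.81% ± 2.33, exact two-sided permutation p = 0.1, the smallest that 3 against 3 can give). At 26 start windows of housekeeping genes it fell from 13.9% ± 0.166 to 9.93% ± 2.67 (exact permutation p = 0.1, of the same limit). Once the mitochondrial share had been taken off library by library, the median differences of the homeobox and Pax genes were −0.523 points at starts, −0.714 in interiors and −1.02 at far ends (all genes: −0.272, −0.480 and −0.535). With the housekeeping share in its place they were +0.212, −0.131 and −0.339 points (all genes: +0.419, −0.278 and −0.273). The direction at starts thus turned in these genes and over all genes, and that share is itself a median over start windows. With CSDS replicate 1 alone against Control, as deposited, the medians of these genes were −0.664, −0.987 and −0.746 points (all genes: −0.754, −0.494 and −0.452). Corrected medians of the interiors were 11.3%, 10.5% and 10.4% in Control and 10.3%, 8.96% and 9.30% in CSDS, and those of the far ends 10.98%, 11.3% and 10.2% against 10.1%, 7.85% and 7.46%. In both the CSDS libraries lay under all Control libraries, by a narrow margin for replicate 1. The same held over all genes, at 84.7%, 84.2% and 84.2% against 83.6%, 83.4% and 83.4% in interiors and at 90.6%, 90.1% and 90.2% against 89.4%, 89.5% and 89.3% at far ends. At starts the corrected medians of the groups overlapped. After that correction the CSDS mean was the lower one at 39 of 51 starts (background 58.2%), 39 of 49 interiors (65.6%) and 19 of 30 far ends (60.8%).

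**Figure D4:**
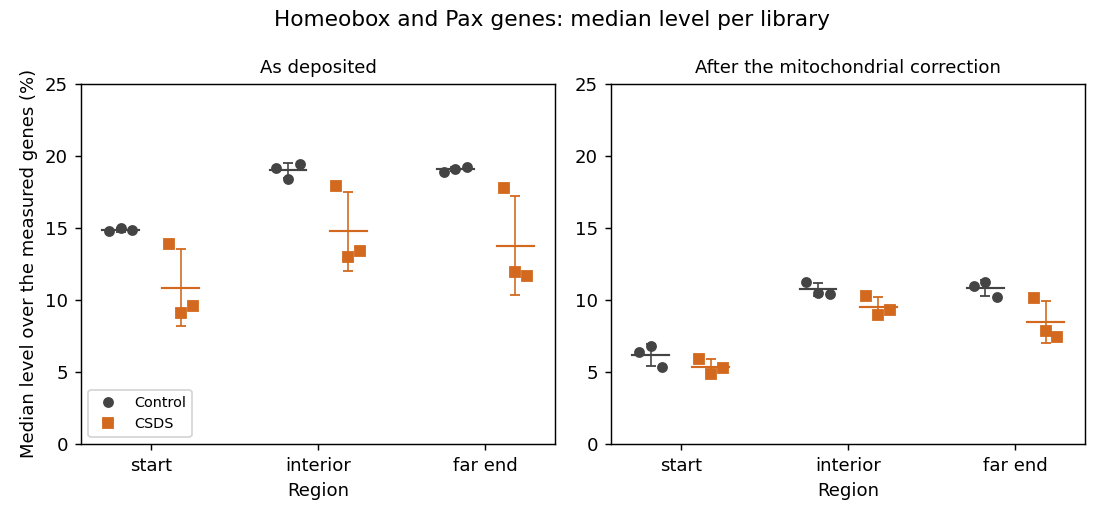
Median level over the measured genes (y axis, percent) in each library, for starts, interiors and far ends, as deposited (left) and after the mitochondrial correction (right). Points are libraries, horizontal lines group means and bars the SD (n = 3). CSDS replicates 2 and 3 lie well under the rest as deposited, and the gap narrows after the correction.

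No region of any gene was called at an adjusted p under 0.05 with 10 points of difference by the quasi-binomial test (F test, dispersion moderated by limma; background 0% of starts, interiors and far ends). At an unadjusted p under 0.05 there were 31 of 51 starts (background 39.8%), 34 of 49 interiors (22.6%) and 12 of 30 far ends (15.6%). Over all genes that count was 5548 starts, 3054 interiors and 628 far ends, and limma on logit values called 48 starts, 0 interiors and 0 far ends, none of them in these families. Every CSDS library lay below every Control library at 24 of 51 starts (background 36.3%), 30 of 49 interiors (23.4%) and 7 of 30 far ends (17.5%). No start, interior or far end had every CSDS library above every Control library (background 0.151%, 1.07% and 1.71%). Among interiors under 30% in Control, the groups were apart in 27 of 43 (62.8%), against 35.9% of 2090 other genes, whose interiors held fewer cytosines (median 72 against 90). At far ends under 30% the share was 7 of 23 (30.4%), against 32.96% of 971 other genes. After the mitochondrial correction the groups were apart in 2 of the 43 low interiors (4.65%, against 6.89%) and in 4 of the 23 low far ends (17.4%, against 7.72%). Over all levels the corrected counts below were 5 starts (background 7.56%), 3 interiors (10.1%) and 4 far ends (8.75%), and those above were 1, 2 and 2 (4.13%, 2.58% and 3.42%). Without CSDS replicate 1, which leaves the CSDS libraries of low mitochondrial share, 203 starts, 35 interiors and 54 far ends of all genes were called, among them the Dlx5 start and the Lhx5 far end. The groups were then apart at 51 starts, 49 interiors and 23 far ends of the homeobox and Pax genes (background 87.3%, 49.5% and 38.5%). Without Control replicate 1 they were apart at 13 far ends (background 24.8%).

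By family, the median start difference as deposited ran from −2.16 points in Msx (2 genes) to −4.38 in Nkx (9 genes), leaving aside the single Pdx1 gene at −4.78. The 9 Nkx starts ranged from −6.41 to −2.71. The groups were apart in 6 of them (36.3% of all genes), Nkx2-1, Nkx2-2, Nkx2-3, Nkx3-2, Nkx6-1 and Nkx6-2. The value of −6.41 is that of Nkx2-6, whose strand is not given. After the mitochondrial correction 1 of the 9 kept its groups apart (7.56% of all genes). Nkx2-1, the thyroid and lung factor, stood at 14.9%, 18.2% and 16.5% in Control and at 14.4%, 10.7% and 11.2% in CSDS. Of the 7 Pax starts only Pax7 had its groups apart (36.3% of all genes). It stood at 13.5%, 12.97% and 13.5% in Control and 12.5%, 8.75% and 7.60% in CSDS. In Pax interiors the groups were apart in 7 of 8 genes (23.4% of all genes), and in 1 of 8 after the correction (10.1% of all genes). The median difference of these interiors was −3.71 points, with a range from −4.63 to −2.89. Pax5, with 578 cytosines, stood there at 37.6%, 38.4% and 36.9% in Control and 36.3%, 33.8% and 33.9% in CSDS. Lhx interiors, led by Lhx4 at −3.69 points, were apart in 4 of 7 and Irx interiors in 4 of 5 (23.4% of all genes). After the correction they were apart in 0 of 7 and 0 of 5 (10.1% of all genes). After the mitochondrial correction the family medians at starts lay between −1.67 (Pdx1) and +1.30 points (Msx), with Irx (+0.374) and En (+0.555) also above 0.

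Among the windows counted as starts with groups apart, that of Dlx5, which may be the 3′ end of the gene, differed most. It lies at chr6:6876801-6878801 and stood at 29.1%, 40.7% and 29.3% in the Control libraries and at 26.4%, 24.0% and 19.2% in the CSDS libraries. The difference was −9.82 points (adjusted p = 0.187 by the quasi-binomial test), −7.69 after the mitochondrial correction with the groups still apart, and −5.99 without Control replicate 2. Only 18 cytosines carry it. Among starts with an annotated strand, Nkx2-3 differed most with groups apart. Its window (chr19:43611325-43613325, 34 cytosines) was at 26.7%, 25.2% and 23.8% in Control and at 21.8%, 18.2% and 19.01% in CSDS, a difference of −5.58 points, −2.90 corrected. Gsx2, which patterns the ventral forebrain, was at 15.2%, 14.2% and 16.9% against 12.97%, 8.63% and 9.52%, or −5.08 points, −1.99 corrected. Nkx2-3 and Gsx2 had an adjusted p of 0.118 and kept the groups apart after correction.

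Lhx9, a gene of the early gonad and limb, stood at 17.1%, 18.1% and 17.02% in Control and at 15.2%, 11.04% and 11.2% in CSDS, or −4.94 points, −1.90 corrected, with groups apart both times. Pitx3, of lens and dopamine neurons, differed by −4.90 points and Pdx1 by −4.78. After correction both were under 2 points lower (−1.79 and −1.67) and their libraries overlapped. The largest start differences of the other families were those of Nkx2-6 (−6.41), Pax8 (−5.87), Six4 (−4.46), Irx6 (−4.30), Emx2 (−4.24), En1 (−4.08), Otx1 (−3.89), Barx1 (−3.67) and Msx1 (−2.32). Nkx2-6, Irx6 and Otx1 have no annotated strand here, and their windows mark the end with more cytosines. Of the starts listed, the groups of Nkx2-6, Pax8 and Msx1 overlapped as deposited. After correction those of Irx6 stayed apart (−1.33 points), and Msx1 turned to +1.11 points. With the housekeeping share in its place Msx1 stood at +1.92 and Barx1 at +0.376 points.

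In interiors the largest difference with groups apart was that of Six6, a gene of the eye and pituitary. Its 19 interior cytosines at chr12:72940883-72943898 stood at 19.5%, 20.4% and 16.9% in Control and at 14.1%, 11.4% and 11.02% in CSDS. The difference was −6.75 points (adjusted p = 0.152 by the quasi-binomial test) and −3.90 after correction, when the groups stayed apart. Nkx2-2, of oligodendrocytes and pancreatic islets, stood at 15.4%, 16.6% and 16.6% against 13.8%, 9.38% and 9.59% over 262 cytosines. That was −5.28 points (adjusted p = 0.121) and −2.22 corrected, with groups apart again. Dlx1 (−4.96), Irx5 (−4.76), Six3 (−4.67) and Pax9, a tooth and thymus gene (−4.63), had groups apart as deposited and overlapping after correction. The Pax8 interior had −4.42 points, −2.70 corrected, with the groups apart both times.

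At far ends Lhx5, a forebrain and hippocampus gene, had the largest difference of the 30 measured. The 17 cytosines at chr5:120440457-120442457 stood at 24.0%, 26.5% and 20.5% in the Control libraries and at 17.2%, 10.9% and 10.3% in the CSDS libraries. All 17 were lower on average in CSDS, the difference was −10.8 points (unadjusted p = 0.00143, adjusted p = 0.2004 by the quasi-binomial test), and after correction it was −8.36 points with the groups apart. CSDS replicate 1 alone lay 6.42 points under the Control mean (−6.42). The Lhx5 start and interior differed by −3.91 and −3.63 points (medians over these genes −3.75 and −3.69, and over all genes −3.40 and −1.56). The strand of Lhx5 is not given either, so this window is the end with fewer cytosines.

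Irx3 had the lowest unadjusted p of these far ends. Its 58 cytosines at chr8:91797511-91799511 stood at 17.5%, 18.9% and 19.9% in Control and at 14.2%, 12.4% and 10.7% in CSDS, or −6.32 points (p = 0.000785, adjusted p = 0.2004 by the quasi-binomial test), −3.44 corrected. Dlx2 (−6.04), Pitx3 (−5.42), Gsx1 (−5.32) and En1 (−3.59) also had groups apart as deposited. After correction those of Pitx3 (−2.58) and Gsx1 (−2.24) stayed apart.

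**Figure D5:**
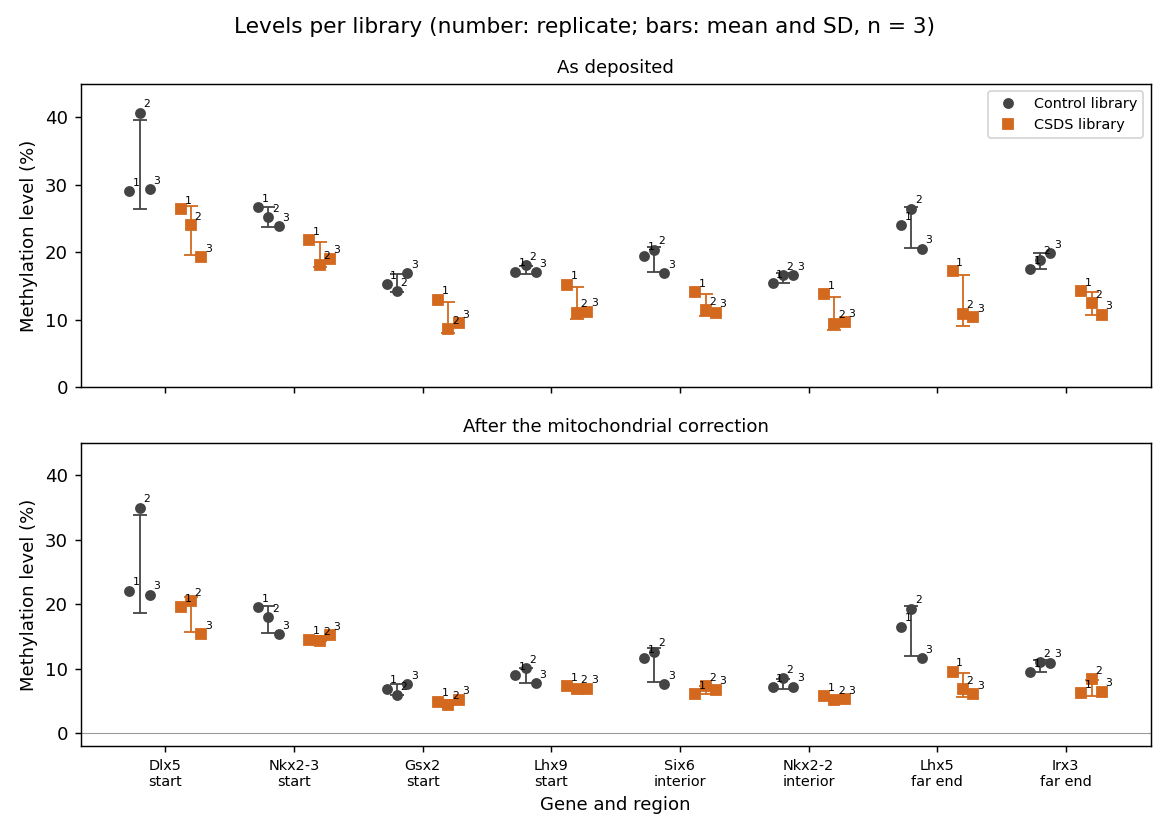
Methylation level (y axis, percent) of 8 gene regions in each library, as deposited (top) and after the mitochondrial correction (bottom). Points are libraries with their replicate number, bars the mean and SD (n = 3). The 8 were picked for the largest differences with groups apart as deposited, so the gap in the top panel follows from the choice. In all 8 the CSDS libraries lie below the Control libraries in both panels, and Dlx5 and Lhx5 show the largest gaps. Among all measured members the corrected groups were apart and lower at 5 of 51 starts, 3 of 49 interiors and 4 of 30 far ends (all genes 7.56%, 10.1% and 8.75%).

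After the correction the CSDS mean was the higher one at 12 starts, 10 interiors and 11 far ends. The groups were apart in 5 of these, the En2 start, the interiors of Dlx3 and Dlx6 and the far ends of Pax2 and Nkx3-2. The En2 start (258 cytosines) was 9.73% in Control and 8.14% in CSDS as deposited, and its corrected values were 1.36%, 0.971% and −0.775% in Control and 2.09%, 2.94% and 2.38% in CSDS, a difference of +1.95 points with groups apart. The Pax2 far end was at 3.98%, 5.89% and 3.75% in Control and 7.11%, 2.59% and 4.91% in CSDS as deposited, and its difference was +4.199 points after correction, with groups apart. All its corrected values but 1 were negative, the highest 0.395%, so the mitochondrial share is more than this region holds. The corrected interior of Dlx3, a gene of skin, hair and placenta, stood at 9.90%, 8.61% and 7.42% in Control and at 10.5%, 10.8% and 10.3% in CSDS (+1.91 points over 83 cytosines). That of Dlx6, which acts in the jaw with Dlx5, differed by +2.01 points over 13 cytosines, and the Nkx3-2 far end by +1.11 points over 81.

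Genes that work with these factors were read the same way. The 72 other homeobox genes on a list of relatives had a start median of 14.5% (68 measured) and an interior median of 18.05% (59 measured), with 40 of the 59 interiors (67.8%) under 30%. The 26 cofactors, such as the Eya and Tle partners, had starts at 14.1% and interiors at 52.0%, and 6 of 26 interiors were under 30%. The 28 Polycomb genes had starts at 13.1% (27 measured) and interiors at 61.7% (25 measured). Median differences between the groups at starts were −3.45, −3.41 and −3.46 points for the 3 lists, and −0.112, −0.121 and −0.0506 after the mitochondrial correction. Groups were apart and lower at 28 of 68, 8 of 22 and 14 of 27 starts, against the background of 36.3%, and 0 of these starts were called. In interiors they were apart and lower in 30 of 59 (50.8%), 10 of 26 (38.5%) and 9 of 25 (36%), against 23.4% of all genes. After the mitochondrial correction 7, 6 and 3 of these interiors were apart and lower (background 10.1%). Of 34 measured far ends of the other homeobox genes, 28 (82.4%) were under 30% in Control, against 24.6% of all genes.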

How the data were processed

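Per the labels' protocols, the Zymo-Seq RRBS Library Kit was used for the libraries. Trim Galore 0.5.0 and Bismark 0.20.0 and the build GRCm38 are named in the submitters' processing notes. The columns are, per the file headers, the coverage of a cytosine (the deposited read count) and the percent of its reads with C or with T, also as deposited. Methylated reads were taken as percent times coverage, a whole number at each position to within 1e-06. Duplicate handling and conversion rate are not given in the sources used here, and the labels name no molecular identifiers, so counting precision covers counting error only.

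Of 3348459 cytosines listed in any library, 2210988 were listed in all 6 with a coverage of 10 or more, and 2206320 were used after the top 0.1% of coverage in any library was left out. Genes, strands and upstream sequences came from RefSeq tables on GRCm38.p6. Regions needed 3 cytosines. Methylated and unmethylated reads summed per region were fitted by a binomial model with quasi-binomial dispersion, moderated by squeezeVar of limma 3.58.1 (R 4.3.3) and held at 1 or above, with an F test and Benjamini-Hochberg adjustment over all regions of a kind. The test was also run on simulated reads. The outcome of that run is not given here, so it cannot show how the test performs in the regions reported. A corrected level takes the unmethylated share over 1 minus the mitochondrial (or housekeeping) share. limma on logit values used a pseudocount of 1. Tables and figures used Python 3.11.15, pandas 2.3.3 and matplotlib 3.10.9.

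The members and the other gene lists, tests and alternatives were chosen with earlier results of these data known. Named regions are, per kind, the 6 lower and up to 4 higher of largest difference with groups apart, the 6 highest and 4 lowest starts, the 5 lowest and 5 highest interiors, the 4 widest spans and the largest start difference of each family. Other members are given as examples of their family. The filter on single-strand cytosines, the start by cytosine number for all genes, the start from the RefSeq promoter table, the members with a known strand and CSDS replicate 1 alone were added after the data were seen.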

Additional observations from a re-analysis of the deposited data

How the results depend on the processing

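Of 769 values of the 46 named regions under the alternatives, 26 turned their sign and the rest kept it. The replicate block changes the test and not the differences, so its 46 values among these could not turn. A coverage minimum of 20, no cap on coverage, reads summed over cytosines and CpG-dense cytosines turned none of those they could give. The same held for the start at the end with more cytosines, the start from the promoter table, each left-out library and the filter on single-strand cytosines. With the mitochondrial correction 6 starts turned: Nkx2-4 (+0.796 points), En2 (+1.95), Msx2 (+1.4996), Irx4 (+0.782), Gsx1 (+0.337) and Msx1 (+1.11). With the housekeeping correction 12 turned: the starts of Nkx2-4 (+1.61), En2 (+2.81), Msx2 (+2.34), Irx4 (+1.59), Pax1 (+0.352), Barx1 (+0.376), Gsx1 (+1.098) and Msx1 (+1.92), the interiors of Nkx2-3 (+0.749), Nkx6-1 (+0.289) and Msx1 (+0.123) and the far end of En1 (+0.00683). With CSDS replicate 1 alone the starts of Pax8 (+0.902), Nkx2-4 (+0.281), En2 (+0.671), Msx2 (+0.392), Irx4 (+0.7599), Pax1 (+0.219) and Gsx1 (+0.332) turned, and with windows of 500 bp that of Dlx1 (+0.925). The cause was not tested.

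The median difference at starts, interiors and far ends was −0.523, −0.714 and −1.02 points with the mitochondrial correction (all genes −0.272, −0.480 and −0.535). It was +0.212, −0.131 and −0.339 with the housekeeping correction (all genes +0.419, −0.278 and −0.273). With CSDS replicate 1 alone it was −0.664, −0.987 and −0.746 (all genes −0.754, −0.494 and −0.452). Left-out libraries moved the median of these genes from −5.20 to −2.82, from −5.12 to −2.89 and from −4.80 to −2.75. Groups were apart and lower at 5, 3 and 4 members with the mitochondrial and at 3, 2 and 2 with the housekeeping correction, at 16 of 39 interiors (all genes 33.03%) and 4 of 15 far ends (34.8%) over CpG-dense cytosines, and at 3 of 17 far ends (16.8%) with windows of 500 bp. Shares of all genes were 7.56%, 10.1% and 8.75% with the mitochondrial and 4.45%, 8.22% and 7.49% with the housekeeping correction. Left-out libraries gave 24 to 51 starts (all genes 37.1% to 87.3%), 30 to 49 interiors (27.1% to 49.5%) and 8 to 23 far ends (21.6% to 38.5%). limma called 48 starts over all genes. Calls with a library left out ran from 0 to 203, 0 to 35 and 0 to 54, highest without CSDS replicate 1. The median span was 0 kb at 10%, 3 kb at 30%, 3 kb with the mitochondrial correction and 4 kb without single-strand cytosines. Around the starts of the promoter table the median difference was −3.86 points over 39 genes.

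The sample titles do not say whether replicate numbers pair the samples. Deviations of same-numbered libraries correlated at −0.0979, −0.0574 and −0.00278 over start windows. Those of differently numbered libraries ran from −0.0408 to 0.0825. These values cannot tell whether samples were paired. A fit with the replicate number as a block called 0 starts, 0 interiors and 0 far ends, with lowest adjusted p of 0.133, 0.0704 and 0.225 by the same quasi-binomial test. Windows of a few cytosines (Six3 start 5, Lhx3 far end 3) limit what those levels can show.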
